A study of Mus musculus with 12 samples.

Results

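The lysyl oxidase family was followed by RNA-seq in mouse lung cells that had been sorted in bulk for Pdgfra. The family has 5 members in the mouse, Lox, Loxl1, Loxl2, Loxl3 and Loxl4, and they were found by gene symbol among the 40760 genes of the deposited tables. All 5 passed the filter on low counts and are among the 17418 genes tested. The 12 libraries formed 4 groups of 3. They were named for the genotype, WT or Pear1-/-, and for the treatment, vehicle or bleo. All came from male mice, which the study's methods describe by default as young adults on the C57BL/6 background. WT mice were wild type, and Pear1-/- mice carried a knockout-first allele of Pear1, a receptor with repeats of the epidermal growth factor type. This allele is present in every cell of the animal and not only in the sorted cells. Bleo is bleomycin, a DNA-damaging drug that scars the lung when it is given through the airway, and vehicle is the treatment without it. The dose, the day of harvest and the number of mice behind each library are not given for these samples in the sources used here. The comparisons ask how bleo changed the family in each genotype and whether the family differed between the labelled genotypes with or without bleo.

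Lysyl oxidases are secreted copper enzymes. They oxidize lysine and hydroxylysine residues of collagen and elastin to aldehydes, which then react with neighbouring residues to form the covalent cross-links that make a matrix stiff and resistant to breakdown. Lox is made as a proenzyme and is released by procollagen proteases such as Bmp1. Loxl1 is known for its role in elastic fibre upkeep. Loxl2, Loxl3 and Loxl4 form the other branch of the family, with scavenger receptor domains in place of a propeptide, and Loxl2 is known to act on the collagen of basement membranes. In lung fibrosis the family is known as a product of activated fibroblasts.

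The coding sequence around the copper-binding histidines is shown for 4 of the 5 members, because the members share this site and it bears on whether reads of one member could be counted on another. Each stretch has 48 bases, was read from GRCm38 by the GENCODE M21 gene models, and is written 5′ to 3′ in the direction of the gene. Capitals mark the 29 bases that are the same in all 4 printed sequences. Each stretch runs from one exon into the next, so its coordinates also span an intron.
Loxl1: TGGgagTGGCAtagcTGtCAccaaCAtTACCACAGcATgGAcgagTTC
Loxl2: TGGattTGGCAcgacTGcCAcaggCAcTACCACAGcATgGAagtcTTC
Loxl3: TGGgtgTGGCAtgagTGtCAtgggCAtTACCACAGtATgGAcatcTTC
Loxl4: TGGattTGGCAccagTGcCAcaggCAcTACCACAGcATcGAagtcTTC
The stretch of Loxl1 lies in exons 3 and 4 of 7 on the minus strand (chr9:58293705-58294381). That of Loxl2 lies in exons 10 and 11 of 14 on the plus strand (chr14:69682316-69689052), and that of Loxl3 also in exons 10 and 11 of 14 on the plus strand (chr6:83049995-83050140). That of Loxl4 lies in exons 11 and 12 of 15 on the minus strand (chr19:42598792-42599899). Loxl2 and Loxl4 shared 45 of the 48 bases, and Loxl2 and Loxl3 shared 37. Lox and Loxl1 shared 46 of the 48. Over annotated transcripts the longest run of identical bases between any pair of members was 32, between Lox and Loxl1, and the shortest such run was 11, between Lox and Loxl4. These runs are shorter than the reads that the study's methods give. The program that counted the reads is not given in the sources used here, so how it treated a read that fits several genes is not known.

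The targeted gene came first. Among vehicle libraries, Pear1 stood at 547 ± 28.8 normalized counts (SD, n = 3) for WT and at 519.7 ± 24.0 for those labelled Pear1-/-, a log2 fold change of -0.08 (edgeR's quasi-likelihood test with Benjamini-Hochberg adjustment, adjusted p = 0.47). Among bleo libraries it stood at 254 ± 14.0 for WT and at 357 ± 14.2 for those labelled Pear1-/-, a log2 fold change of 0.48 (adjusted p = 1.2e-04). The counts of this gene therefore did not check the genotype labels, and all directions below follow the labels. The tables give 1 count for a gene and library, so reads before and after the inserted cassette cannot be told apart.

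The libraries held between 6702948 and 10447101 counts. A normalized count is the deposited count divided by a size factor of its library, and a floor of 3 counts stood for 0.287 to 0.448 CPM, the usual scale of counts relative to library size, counting error only. WT vehicle replicate 2 stood apart from the other WT vehicle libraries. The chi-square of its counts against them was 21.2 and 21.8 per gene, where all other pairs of replicates gave 1.35 to 4.82. Its marker sums also lay nearer to Pear1-/- vehicle than to its own group, and it alone set the upper end of the 3 WT vehicle ranges of marker sums below. Pdgfra was present in all groups, with means of 4565 normalized counts for WT and 4165 for Pear1-/- after vehicle, and of 1360 and 2392 after bleo. Markers of other cells were present as well. The summed level of 14 leukocyte markers ranged from 20504 to 30056 normalized counts in WT vehicle, from 29527 to 32027 in Pear1-/- vehicle, from 107582 to 109444 in WT bleo and from 48492 to 49656 in Pear1-/- bleo. The 7 epithelial markers together ranged from 38449 to 56069, from 52681 to 61935, from 14719 to 14960 and from 6534 to 6680 in the same order, and the 10 fibroblast markers from 70941 to 91082, from 91795 to 93113, from 18118 to 18363 and from 21644 to 21990. Few genes carried these sums. Lyz2 alone had a mean of 74718 normalized counts in WT bleo. In WT vehicle Scgb1a1 and Sftpc had means of 25294 and 15048, and Inmt and Dcn of 31049 and 26523. No leukocyte or epithelial marker had a mean of 0 in any group. In bulk samples, fewer cells of a type and less RNA per cell cannot be told apart. Within the bleo groups, pairs of replicates gave a chi-square of only 1.35 to 1.49 per gene. The labels do not say that replicates are separate mice, so the p-values given here may not measure variation between mice.

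Loxl1 was the member with the highest level per length. Levels between members were compared as normalized counts per kilobase of annotated exon, with exonic lengths of 4778 bases for Lox, 3297 for Loxl1, 5405 for Loxl2, 4603 for Loxl3 and 4213 for Loxl4. In all 12 libraries the order of these levels was Loxl1, Lox, Loxl3, Loxl2 and Loxl4 from high to low. Neighbours in this order did not overlap within any group. The narrowest gap was in Pear1-/- bleo, where Loxl1 had a mean of 1356 and Lox a mean of 1200 normalized counts per kilobase, 1.13 times apart. In WT vehicle the same pair lay 4.57 times apart. Before division by length, Lox led in Pear1-/- bleo, with a mean of 5733 normalized counts against 4471 for Loxl1. The order of this pair there thus rests on the lengths used.

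Lox, the founding member, was higher in Pear1-/- bleo than in every other group. Its normalized counts in replicates 1 to 3 were 1389, 1273 and 1528 in WT vehicle. They were 1305, 1356 and 1216 in Pear1-/- vehicle, and 1585, 1636 and 1563 in WT bleo. In Pear1-/- bleo they were 5803, 5534 and 5861. The 3 Pear1-/- bleo libraries thus lay far above the other 9, which all fell between 1216 and 1636. Lox (ENSMUSG00000024529) lies on the minus strand of chromosome 18 from 52516067 to 52529867 of GRCm38.

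Against WT bleo, Lox was 3.56-fold higher in Pear1-/- bleo (log2 fold change 1.83, standard error 0.078, adjusted p = 1.35e-10). Against its own vehicle group it rose 4.45-fold in Pear1-/- (log2 fold change 2.15, standard error 0.078, adjusted p = 6.97e-12). In WT the rise with bleo was 1.15-fold (log2 fold change 0.20, standard error 0.076, adjusted p = 0.0281). The libraries of WT bleo and WT vehicle did not overlap, but the adjusted p of this small difference was 0.0577 with DESeq2-type size factors, 0.134 when genes averaging below 1 log2 CPM were dropped, 0.118 from the WT libraries alone, 0.0589 with limma and 0.0514 without WT vehicle replicate 1. With all genes kept regardless of their counts, a setting that raised the log2 values of all 5 members in this comparison, the log2 fold change of Lox was 0.34 and passed (adjusted p = 0.00298). Between the vehicle groups the log2 fold change of Lox was -0.12, with a 95% interval from -0.28 to 0.045 (adjusted p = 0.298), and their libraries overlapped.

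**Figure D1:**
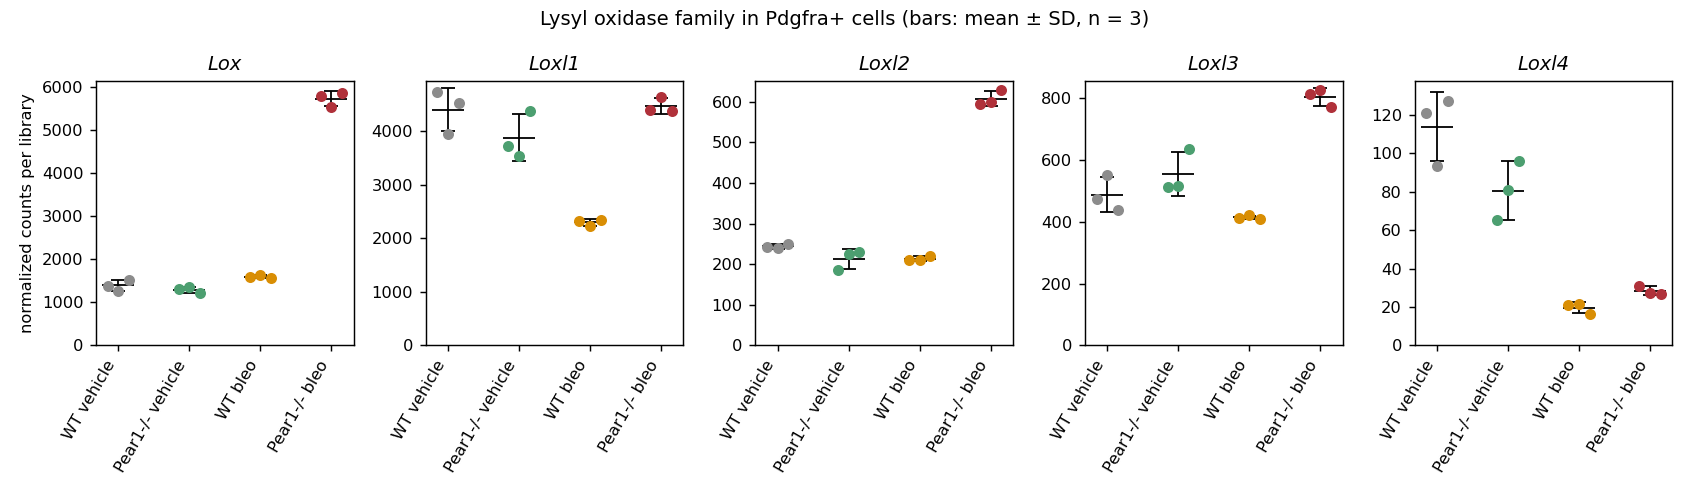
Normalized counts of each family member (vertical axis, linear and starting at 0) in each library, by group. Points are the 3 libraries of a group, and bars are the mean ± SD. Lox, Loxl2 and Loxl3 are highest in Pear1-/- bleo, Loxl1 is lowest in WT bleo, and Loxl4 is lower in both bleo groups than in both vehicle groups.

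Loxl1 had a different pattern, with the lowest levels in WT bleo. Its normalized counts were 4738, 3955 and 4523 in WT vehicle and 3727, 3537 and 4381 in Pear1-/- vehicle. In WT bleo they were 2333, 2228 and 2341, and in Pear1-/- bleo 4390.0, 4638 and 4386. The 3 WT bleo libraries lay below all others, and the Pear1-/- bleo libraries overlapped with WT vehicle. Bleo lowered Loxl1 in WT (log2 fold change -0.93, standard error 0.087, adjusted p = 2.22e-07), to 0.526 of the vehicle level. In Pear1-/- the log2 fold change with bleo was 0.21 (standard error 0.086, adjusted p = 0.047). This value stayed between 0.12 and 0.29 when 1 library was left out, but its adjusted p rose above 0.05 in 8 of those 12 fits, and it was 0.0629 with DESeq2-type size factors, 0.107 when genes below 1 log2 CPM were dropped and 0.0899 with limma. The log2 fold change of Pear1-/- bleo against WT bleo was 0.95 (standard error 0.087, adjusted p = 4.51e-07), a 1.93-fold difference. Loxl1 (ENSMUSG00000032334) spans chr9:58287738-58313186 on the minus strand of GRCm38.

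Loxl2 followed Lox. It had 243, 239 and 249.6 normalized counts in WT vehicle, 185, 224 and 229 in Pear1-/- vehicle, 211, 210.1 and 221 in WT bleo, and 594, 601 and 629 in Pear1-/- bleo. The Pear1-/- bleo libraries again stood far above the other 9. The difference from WT bleo was 2.81-fold (log2 fold change 1.49, standard error 0.082, adjusted p = 1.91e-09), and the rise from Pear1-/- vehicle was 2.87-fold (log2 fold change 1.52, standard error 0.082, adjusted p = 5.93e-10). In WT the log2 fold change with bleo was -0.18 (standard error 0.088, adjusted p = 0.0874), although all 3 WT bleo libraries lay below the 3 WT vehicle libraries. That adjusted p was 0.0495 with DESeq2-type size factors and 0.0249 when genes below 1 log2 CPM were dropped. With all genes kept regardless of their counts, the log2 fold change was -0.042 (adjusted p = 0.789). The gene (ENSMUSG00000034205) spans chr14:69609068-69695834 on the plus strand, and 5.57% of its exonic bases are shared with Gm27177 on the opposite strand, which had 0 to 4 counts in any library.

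Loxl3, which is known for collagen cross-linking in the developing skeleton and palate, moved less. Its normalized counts were 474, 550.0 and 439.6 in WT vehicle and 513, 515 and 635 in Pear1-/- vehicle. They were 411, 421 and 410.0 in WT bleo and 815, 828 and 772 in Pear1-/- bleo. Pear1-/- bleo was above every other library, and WT bleo was below every other library. The difference between the bleo groups was 1.93-fold (log2 fold change 0.95, standard error 0.095, adjusted p = 1.05e-06), and Loxl3 rose 1.46-fold with bleo in Pear1-/- (log2 fold change 0.54, standard error 0.093, adjusted p = 1.29e-04). In WT the log2 fold change with bleo was -0.23 (standard error 0.097), with an adjusted p of 0.049987 at the edge of the threshold. The call was lost in 11 of the 12 fits that each left out 1 library, and the log2 fold change was -0.065 without WT vehicle replicate 2 (adjusted p = 0.512) and -0.097 with all genes kept regardless of their counts (adjusted p = 0.461).

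Loxl3 (ENSMUSG00000000693) spans chr6:83034173-83052562 on the plus strand. It shares 535 exonic bases, 11.6% of its exonic length, with Htra2 on the opposite strand, a gene of a mitochondrial protease. Htra2 had 169 to 400 counts per library. Whether strand was used in counting is not stated, so reads in the shared bases cannot be assigned. Htra2 did not pass the test between the bleo groups (log2 fold change -0.14, adjusted p = 0.236), and with bleo in WT it rose (log2 fold change 0.74, adjusted p = 1.11e-05).

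Loxl4 was the scarcest member and was lower after bleo in both genotypes. It had 121, 93.4 and 127 normalized counts in WT vehicle, 65.3, 80.7 and 96.0 in Pear1-/- vehicle, 21.1, 21.4 and 16.2 in WT bleo, and 31.1, 27.5 and 26.7 in Pear1-/- bleo, from 16 to 111 deposited counts per library. No bleo library overlapped with a vehicle library. Bleo lowered it to 0.175 of the vehicle level in WT (log2 fold change -2.52, standard error 0.21, adjusted p = 5.12e-08) and to 0.356 in Pear1-/- (log2 fold change -1.49, standard error 0.20, adjusted p = 1.13e-05). Between the bleo groups the log2 fold change was 0.52, with a 95% interval from 0.0045 to 1.04. It did not pass (adjusted p = 0.092), although the 3 libraries of each group did not overlap, and limma gave an adjusted p of 0.0313. Loxl4 (ENSMUSG00000025185) spans chr19:42593982-42612813 on the minus strand.

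**Figure D2:**
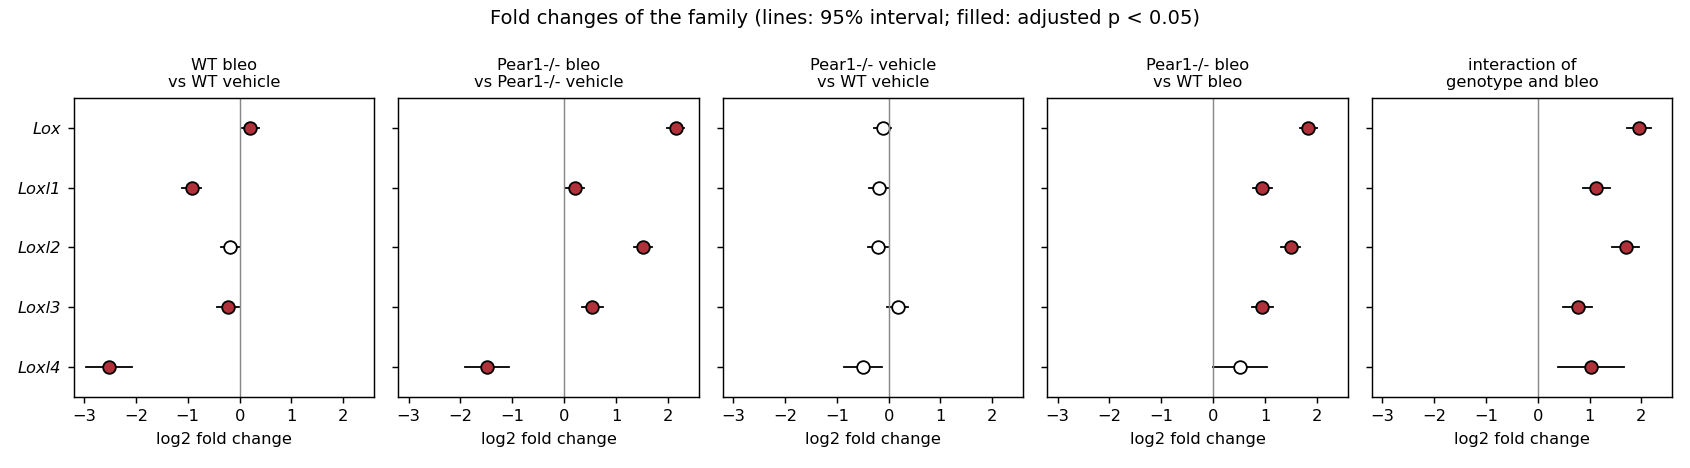
Log2 fold changes of each family member (horizontal axis) in the 5 comparisons. Points are estimates of edgeR's quasi-likelihood test, lines are 95% intervals, and filled points have an adjusted p under 0.05. The interaction is above 0 for all 5 members, from 0.77 for Loxl3 to 1.95 for Lox.

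Counted over the family, bleo in WT raised 1 member and lowered 3 of 5, where 31.4% of all tested genes were higher and 36.6% were lower at the same threshold. Without WT vehicle replicate 2 the lowered members were 2, in a fit in which 9124 of 20405 genes were lower, and with limma 2 members passed in all. In Pear1-/- bleo raised 4 members and lowered 1, against 28.9% of tested genes higher and 33.4% lower. With bleo, 10 of the 10 fibroblast markers fell in WT and 9 fell in Pear1-/-, while of 14 leukocyte markers 9 rose and 4 fell in WT, and 6 rose and 6 fell in Pear1-/-. The part of these shifts in the members' values was not tested. After vehicle, 0 members passed between the genotypes, where 0.855% of tested genes were higher and 3.65% were lower in Pear1-/-. At an unadjusted p under 0.05, Loxl1, Loxl2 and Loxl4 were lower there, with unadjusted p of 0.0455, 0.0354 and 0.0103 in edgeR, and DESeq2 and limma also called 0 members. Without WT vehicle replicate 2 the vehicle comparison called 3 members. These were Loxl1 (log2 fold change -0.19, adjusted p = 0.00943), Loxl3 (0.34, adjusted p = 8.53e-04) and Loxl4 (-0.56, adjusted p = 0.00339), in a fit in which 55.2% of all tested genes passed.

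Between the bleo groups, 4 of 5 members were higher in Pear1-/- and 0 were lower, against 22.1% of all tested genes higher and 23.9% lower. Lox and Loxl2 also passed the study's fold criterion of more than 2, which 6.26% of tested genes did upward and 8.76% did downward. The median log2 fold change of the 5 members was 0.95, and that of all tested genes was -0.013. Leaving out any single library gave the same count of 4. In this comparison 11 of the 14 leukocyte markers were lower in Pear1-/- bleo and 1 was higher, 5 of 7 epithelial markers were lower and 1 was higher, and 4 of 10 fibroblast markers were higher and 2 were lower. Of 6 endothelial markers 1 was higher and 2 were lower, and of 4 mesothelial markers 3 were higher and 0 lower. Of 7 smooth muscle and pericyte markers 4 were higher and 1 was lower. Their summed level, most of it Acta2, was 11802 to 12083 normalized counts against 4170 to 4206 in WT bleo. The part of these shifts in the family's differences was not tested.

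The interaction term of the fit compares the bleo response of Pear1-/- with that of WT. The interaction was above 0 and passed for all 5 members, against 17.9% of tested genes that passed upward and 19.1% downward. It was largest for Lox (log2 1.95, standard error 0.11, adjusted p = 1.33e-08) and Loxl2 (log2 1.70, standard error 0.12, adjusted p = 1.09e-07). Loxl1 followed at 1.13 (adjusted p = 5.42e-06), Loxl4 at 1.02 (adjusted p = 0.0138) and Loxl3 at 0.77 (adjusted p = 4.14e-04). That of Loxl4 fell to 0.85 with an adjusted p of 0.0523 without WT bleo replicate 3. In the same term, 0 of 14 leukocyte markers were higher and 11 lower, and of 7 epithelial markers 0 and 5. Of 7 smooth muscle and pericyte markers 4 were higher and 0 lower, and of 10 fibroblast markers 3 and 2. Of 6 endothelial markers 0 were higher and 2 lower, and of 4 mesothelial markers 1 and 0. The part of these shifts in the members' interactions was not tested.

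The shares of the members within the family were compared next, in groups too small for any share to pass the test. Summed over members, the family's level with vehicle was 1807 ± 135 normalized counts per kilobase (SD, n = 3) for WT and 1627 ± 139 for Pear1-/-. With bleo it was 1166 ± 10.5 for WT and 2850 ± 11.4 for Pear1-/-. With vehicle, Lox made up 16.2% ± 0.95 of this level for WT and 16.8% ± 2.24 for Pear1-/-, and with bleo 28.6% ± 0.92 and 42.1% ± 1.43. The share of Loxl1 was 73.9% ± 1.45 and 72.3% ± 2.11 with vehicle, and 59.8% ± 1.11 and 47.6% ± 1.36 with bleo. The 2 shares did not overlap between bleo and vehicle of either genotype, nor between the bleo groups (exact permutation test, two-sided, p = 0.1 for each, the smallest that 3 libraries against 3 allow, adjusted p = 0.125 over the 20 comparisons of shares). Between the vehicle groups they overlapped.

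The 3 scarcer members differed in their shares. Loxl2 went from 2.51% in WT vehicle and 2.42% in Pear1-/- vehicle to 3.40% in WT bleo and 3.95% in Pear1-/- bleo. The share of Loxl3 was 5.92%, 7.39%, 7.72% and 6.14% in the same order, so it was larger with bleo in WT and smaller with bleo in Pear1-/-, although its own level was highest in Pear1-/- bleo. Loxl4 went from 1.49% and 1.17% to 0.399% and 0.237%. Each of these shifts with bleo was without overlap between its groups (exact permutation test, two-sided, p = 0.1, adjusted p = 0.125).

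**Figure D3:**
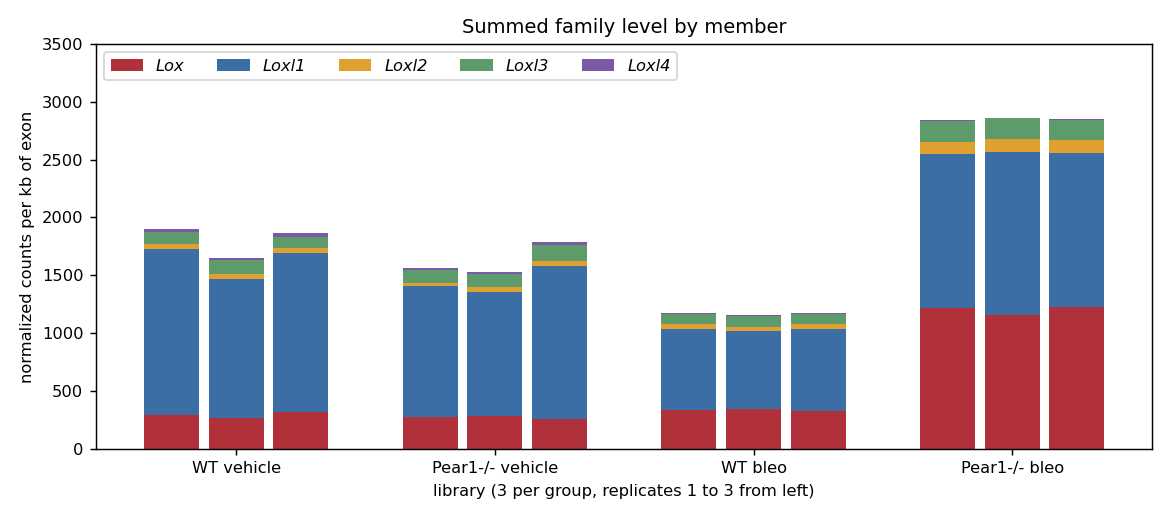
Normalized counts per kilobase of exon (vertical axis, linear from 0) of the 5 members, stacked for each of the 12 libraries. The 3 Pear1-/- bleo libraries reach the highest sums, with the largest Lox part. Loxl1 is the largest part in all 12 libraries.

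The substrates of the family were examined next. For this and the following lists, the shares of all tested genes are these. Between the bleo groups 22.1% were higher in Pear1-/- and 23.9% were lower. With bleo, 31.4% were higher and 36.6% lower in WT, and 28.9% and 33.4% in Pear1-/-. Of 8 tested fibrillar collagen genes, 7 were higher in Pear1-/- bleo than in WT bleo, all 7 of them more than 2-fold, and 1 was lower, with a median log2 fold change of 1.52. Col1a1, the main chain of type I collagen, was higher by a log2 fold change of 1.73 (adjusted p = 6.6e-12). Col11a1, Col5a3 and Col5a1, chains of minor fibrillar collagens, had log2 fold changes of 2.47, 2.06 and 1.61 (adjusted p = 2.18e-07, 1.41e-10 and 1.07e-10). The gene that was lower was Col11a2 (log2 fold change -1.12, adjusted p = 0.048), at 16.9 ± 3.02 and 7.85 ± 2.58 normalized counts (SD, n = 3). With bleo in WT 3 of the 8 rose and 1 fell, with a median log2 fold change of 0.14. In Pear1-/- 7 rose and 0 fell, with a median of 1.92. Without WT vehicle replicate 2, 9 genes of the list were tested, of which 4 rose and 2 fell in WT. Of 20405 genes in that fit, 6467 were higher and 9124 lower.

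Of 9 genes of elastin and the elastic fibre scaffold, 8 were higher in Pear1-/- bleo than in WT bleo and 0 were lower, with a median log2 fold change of 0.76. Eln, which encodes elastin, went from 9211 ± 205 to 26886 ± 265 normalized counts (SD, n = 3, log2 fold change 1.53, adjusted p = 7.21e-10). Fbn2, a microfibril component, was higher by log2 1.09 (adjusted p = 0.0026). Ltbp4, a binding protein of latent TGF-β in elastic fibres, did not pass (log2 fold change 0.20, adjusted p = 0.0973). With bleo in WT 2 of the 9 rose and 5 fell, and in Pear1-/- 7 rose and 2 fell.

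Lox was set against its substrates within each library, where library scaling cancels. This was chosen after the values of Lox and the collagens were seen. The log2 ratio of Lox to Col1a1 was -4.54 ± 0.12 for WT and -4.61 ± 0.17 for Pear1-/- with vehicle, and -4.74 ± 0.035 and -4.63 ± 0.066 with bleo (SD, n = 3). In WT the difference of bleo from vehicle was -0.20, and -0.13 without WT vehicle replicate 3. The libraries did not overlap (exact permutation test, two-sided, p = 0.1, adjusted p = 0.16). Between the bleo groups it differed by 0.10 and the libraries overlapped (exact permutation test, two-sided, p = 0.2, adjusted p = 0.291 over 16 comparisons of ratios). The log2 ratio of Lox to Col3a1, the chain of type III collagen, went from -4.74 ± 0.14 in WT vehicle and -4.83 ± 0.10 in Pear1-/- vehicle to -4.33 ± 0.043 in WT bleo and -3.66 ± 0.055 in Pear1-/- bleo. That of Lox to Loxl1 went from -1.66 ± 0.10 and -1.58 ± 0.24 to -0.53 ± 0.073 and 0.36 ± 0.090. The ratio of Loxl1 to Eln went the other way, from -0.64 ± 0.046 and -0.65 ± 0.11 to -2.0 ± 0.0074 and -2.59 ± 0.033. For these 3 ratios bleo and vehicle did not overlap in either genotype, nor did the bleo groups (exact permutation test, p = 0.1 for each, adjusted p = 0.16).

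**Figure D4:**
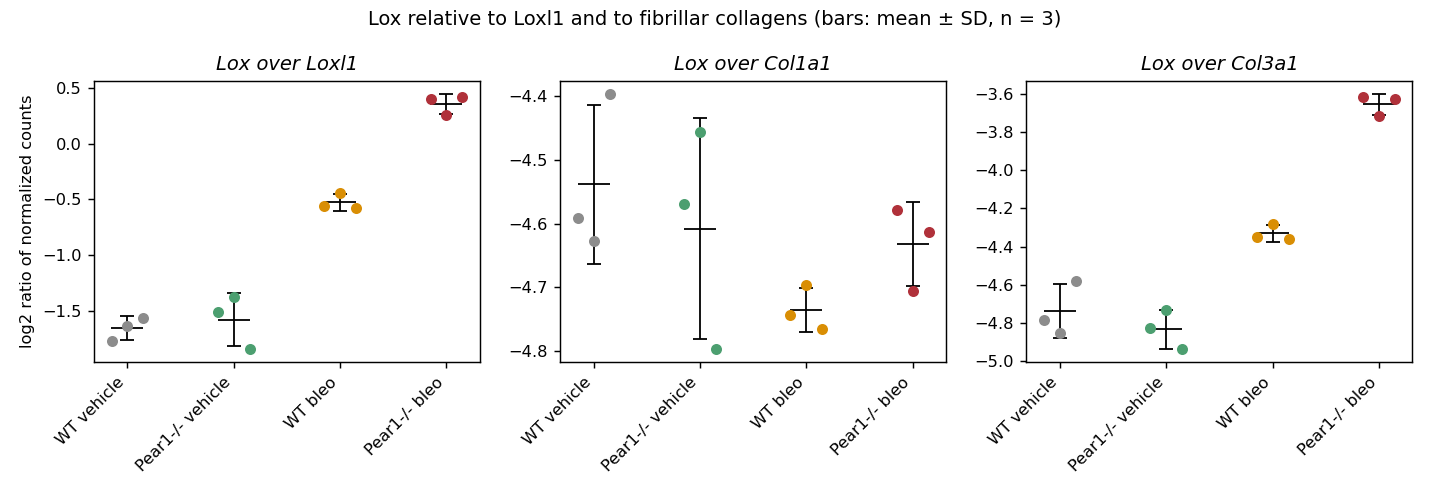
Log2 ratios of normalized counts (vertical axes, which do not start at 0 and differ in range between the panels) of Lox to Loxl1, to Col1a1 and to Col3a1 in each library, by group. Points are the 3 libraries of a group and bars are the mean ± SD. The ratio to Loxl1 goes from a mean of -1.66 in WT vehicle to 0.36 in Pear1-/- bleo, while the groups lie within 0.20 of each other for the ratio to Col1a1.

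Next came the proteins that cleave the propeptide or hold the enzyme at the fibre. Of 10 tested genes, 9 were higher in Pear1-/- bleo than in WT bleo and 0 were lower, 6 of them more than 2-fold. Bmp1, the protease known to release active Lox, was higher by log2 0.98 (adjusted p = 2e-07). It lies outside the rule for named genes and was chosen after its values were seen. Its relative Tll1 was higher by log2 1.82 (adjusted p = 4.75e-04) at a low level of 11.1 ± 3.39 and 39.8 ± 4.84 normalized counts (SD, n = 3). Fmod, a collagen-binding proteoglycan known to bring Lox to collagen, had 1.80 (adjusted p = 1.18e-08), Adamts14, a procollagen protease, 1.31 (adjusted p = 4.29e-07) and Postn, a matrix scaffold protein that binds Bmp1, 1.20 (adjusted p = 1.5e-09). Thbs1, a regulator of matrix assembly, had 0.95 (adjusted p = 6.53e-10). Pcolce2, an enhancer of procollagen cleavage, did not pass (log2 fold change -0.26, adjusted p = 0.0614). Bleo raised 3 of the 10 in WT and lowered 6, and in Pear1-/- 7 rose and 3 fell.

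Lysine hydroxylation sets which kind of cross-link can form. Of 9 tested genes of this list, 5 were higher in Pear1-/- bleo than in WT bleo and 1 was lower. Fkbp10, a chaperone needed for telopeptide hydroxylation, was higher by log2 1.38 (adjusted p = 3.06e-09), P3h4, a partner of the hydroxylase complex, 1.38 (adjusted p = 3.71e-08) and Plod2, the telopeptide lysyl hydroxylase, 1.04 (adjusted p = 6.08e-08). Plod1, a lysyl hydroxylase of the collagen helix, and Ppib, a prolyl isomerase of collagen folding, had smaller log2 fold changes of 0.41 and 0.38 (adjusted p = 3.79e-04 and 0.0271). P3h3, another member of the hydroxylase complex, was lower (log2 fold change -0.49, adjusted p = 9.66e-04). Plod3, Colgalt1 and Colgalt2 did not pass, with log2 fold changes of 0.061, 0.088 and -0.37 (adjusted p = 0.525, 0.376 and 0.233). Colgalt1 and Colgalt2 are galactosyltransferases of hydroxylysine. With bleo in WT 2 of the 9 rose and 4 fell, and in Pear1-/- 7 rose and 2 fell. Without WT vehicle replicate 2, 5 rose and 3 fell in WT. Of 20405 genes in that fit, 6467 were higher and 9124 were lower.

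Lysyl oxidases need copper, which is loaded in the secretory pathway. Of 5 genes of copper uptake and delivery, 1 was higher in Pear1-/- bleo than in WT bleo and 3 were lower, with a median log2 fold change of -0.60. Slc31a1, the main copper importer, was higher (log2 fold change 0.50, adjusted p = 1.58e-04). Atp7a, the pump that loads copper into secreted enzymes such as Lox, was lower (log2 fold change -0.72, adjusted p = 9.44e-05), with 785 ± 23.7 normalized counts for WT and 481 ± 12.9 for Pear1-/- (SD, n = 3). Its copper chaperone Atox1 and Slc31a2 were also lower (log2 fold changes -0.60 and -0.30, adjusted p = 1.51e-04 and 0.0104). Atp7b did not pass (log2 fold change -1.53, adjusted p = 0.0649), at 6.14 ± 1.84 and 2.02 ± 2.76 normalized counts, close to the floor. Bleo raised 3 of the 5 in WT and lowered 1, and in Pear1-/- 3 rose and 2 fell. Of the 14 leukocyte markers, 11 were lower in Pear1-/- bleo than in WT bleo. Their part in the copper genes' values was not tested.

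Of 6 tested genes of other amine oxidases and transglutaminases, 2 were higher in Pear1-/- bleo than in WT bleo and 0 were lower. Of all tested genes, 22.1% were higher and 23.9% were lower. F13a1, the coagulation transglutaminase, was higher by log2 1.63 (adjusted p = 4.82e-09) and Tgm1, a transglutaminase of epithelia, 0.99 (adjusted p = 3.43e-04). Tgm2, the tissue transglutaminase, had 0.072 (adjusted p = 0.524). The amine oxidases Aoc1, Aoc2 and Aoc3 did not pass, with log2 fold changes of 0.50, -0.061 and -0.33 (adjusted p = 0.115, 0.952 and 0.758). With bleo in WT 3 of the 6 rose and 3 fell, and in Pear1-/- 3 rose and 2 fell.

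Of 11 known inducers of the family, 7 were higher in Pear1-/- bleo than in WT bleo and 3 were lower. The transcription factors Twist1 and Snai1 had log2 fold changes of 2.25 (adjusted p = 9.6e-04) and 1.59 (adjusted p = 1.47e-09). Twist1 was scarce, at 3.32 ± 1.29 and 16.3 ± 3.30 normalized counts (SD, n = 3). The ligand Tgfb2 had 1.11 (adjusted p = 4.08e-07), and Epas1, a hypoxia-inducible factor, 0.70 (adjusted p = 7.93e-07). The ligand Tgfb1 was lower (log2 fold change -0.46, adjusted p = 8.03e-04), as were the TGF-β mediators Smad2 and Smad4 (log2 fold changes -0.61 and -0.47, adjusted p = 3.68e-05 and 0.00234). Smad3 did not pass (log2 fold change 0.18, adjusted p = 0.0532). Bleo raised 5 of the 11 in WT and lowered 5, against 31.4% of all tested genes higher and 36.6% lower. In Pear1-/- 4 rose and 3 fell, against 28.9% and 33.4%.

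**Figure D5:**
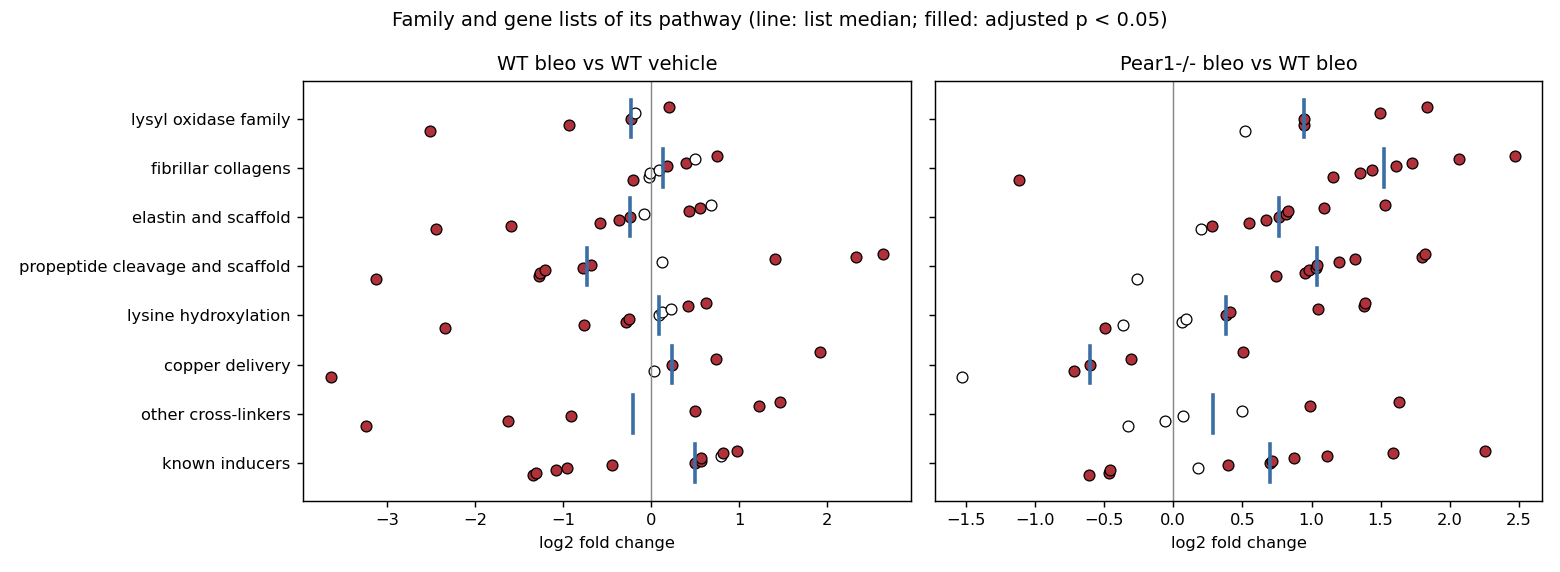
Log2 fold changes (horizontal axis) of the family and of the tested genes of 7 lists of its pathway, in WT bleo against WT vehicle (left) and in Pear1-/- bleo against WT bleo (right). Points are genes, filled at an adjusted p under 0.05, and vertical lines are list medians. On the right, the medians lie above 0 for all lists but copper delivery, whose median is -0.60.

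Across the 12 libraries, the log2 CPM of Lox and Loxl2 had a Pearson r of 0.97, Loxl2 and Loxl3 one of 0.87, and Lox and Loxl3 one of 0.80. Lox and Loxl1 had 0.33 and Lox and Loxl4 had -0.50. The libraries fall into their 4 groups, so these values describe the group pattern and carry no test. Among the 10702 other genes (10703 for Loxl4) averaging 3 log2 CPM or more, the patterns most like that of Lox were those of Ssc5d (r = 0.994), Lipg (0.993) and Kctd5 (0.992). For Loxl1 they were Mxra8 (0.996), Rab34 and Col18a1 (both 0.984), and for Loxl2 they were Ddb1 (0.994), Mfap2 (0.988) and Fstl1 (0.987). Loxl3 was most like Nid2 (0.985), Serpina3n (0.983) and Adamts4 (0.982), and those named for Loxl4 are Usp54 (0.991) and Lrp4 (0.990).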

How the data were processed

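The authors sorted Pdgfra+ lung cells, made full-length cDNA with SMART-Seq v4 and deposited raw counts per gene and library on GRCm38. The normalized signal they deposited equals these counts after division by DESeq2 size factors, without a log. Counts were tested in R 4.3.3 with edgeR 4.0.16 (quasi-likelihood, TMM, filterByExpr, one mean per group over all 12 libraries, Benjamini-Hochberg over 17418 genes). A gene passed at an adjusted p under 0.05. Limma 3.58.1, on log2(normalized value + 1), and DESeq2 1.42.0 served as alternatives, together with other filters and libraries left out. The method was tested on simulated data. Standard errors are the log2 fold change divided by the root of the F statistic.

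The family and gene lists were chosen with earlier results of these data known. Members are named in every comparison, and from each list the gene of the highest mean log2 CPM over the 12 libraries (not per length), up to 4 genes of the largest change past both criteria between the bleo groups, and any gene behind a count of 5 or fewer there. Likeness names the 3 genes of highest r for each member, of which 1 is not reported here. Col2a1, Tll2 and Tgm3 were not tested in the fit of all 12 libraries. Exonic lengths come from GENCODE M21. The labels do not say that replicates are separate mice, so p-values measure the spread between these libraries, which may be technical, and in the bleo groups this spread was small.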

Additional observations from a re-analysis of the deposited data

Results flagged for a closer look

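For all 5 members the response to bleo differed between WT and the libraries labelled Pear1-/-, by the interaction term of edgeR's quasi-likelihood fit over the 12 libraries. The interaction on the log2 scale was 1.95 for Lox, which rose in both genotypes. In WT this rise was small, with a log2 fold change of 0.20, and lost its call in 5 alternatives. The interaction was 1.70 for Loxl2, which rose in Pear1-/- and did not pass in WT. It was 1.13 for Loxl1 and 0.77 for Loxl3, whose log2 fold changes were below 0 in WT and above 0 in Pear1-/-. It was 1.02 for Loxl4, which fell in both. In groups of 3 no library was tested as an outlier.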

How the results depend on the processing

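Over all alternatives, no member's log2 fold change changed sign in any comparison, and between the bleo groups Lox, Loxl1, Loxl2 and Loxl3 passed in each, while Loxl4 passed with limma alone (0.52). With all libraries kept, the other calls that moved were those of small changes with bleo. With DESeq2-type size factors, Lox in WT was 0.17, Loxl2 in WT -0.21 (now past the threshold) and Loxl1 in Pear1-/- 0.19. With only genes of a mean log2 CPM of at least 1, these were 0.14, -0.24 (now past it) and 0.17. With no filter on counts, Loxl3 in WT was -0.097, Loxl2 -0.042 and Lox 0.34. From the compared groups alone, Lox in WT was 0.17. With limma, Lox in WT was 0.19, Loxl3 in WT -0.23 and Loxl1 in Pear1-/- 0.21, so that 2 members passed in WT. With a replicate block, Loxl3 in WT was -0.22 (adjusted p = 0.0685), and no other call changed. Replicate numbers did not pair the samples, since the deviations of same-numbered libraries correlated between -0.16 and 0.10 in 18 pairs, none of them above 0.1. The cause of these changes was not tested.

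Leaving out 1 library gave ranges with bleo in WT of 0.20 to 0.28 for Lox and -0.29 to -0.065 for Loxl3, with 2 to 4 members passing, and of 0.12 to 0.29 for Loxl1 in Pear1-/-. Between the vehicle groups they were -0.12 to -0.031 for Lox, -0.24 to -0.070 for Loxl1, -0.22 to -0.058 for Loxl2, 0.11 to 0.34 for Loxl3 and -0.60 to -0.32 for Loxl4, with 0 to 3 members passing. The interaction of Loxl4 was 0.83 to 1.11. The difference in share between the vehicle groups turned sign for Lox (-0.34 to 1.82 percentage points) and Loxl2 (-0.23 to 0.040). Ratios near no difference also turned sign. These were Lox to Col1a1 in Pear1-/- bleo against vehicle (-0.12 to 0.051) and, between the vehicle groups, Lox to Col1a1 (-0.14 to 0.026), Lox to Loxl1 (-0.025 to 0.21) and Loxl1 to Eln (-0.068 to 0.037). Ratios and the fits of gene lists without WT vehicle replicate 2 were added after the data were seen. Between the bleo groups those fits gave 7 fibrillar genes higher and 2 lower, 9 elastic and 0, and 9 of the propeptide list and 1. They gave 5 and 1 for lysine hydroxylation, 1 and 4 for copper, 3 and 0 for other cross-linkers, and 8 and 3 for inducers. Of all 20405 genes tested there, 4745 were higher and 5295 were lower. Loxl4 rested on 16 to 111 counts per library, which limits its precision.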
